A study of Mus musculus with 12 samples.

Results

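The comparison set the distal optic vesicle of Bmp4 knockout (KO) mouse embryos against the surface ectoderm over it in KO embryos, to list the tissue differences that exist without Bmp4. It rests on 6 of the 12 arrays of the series, chosen by their labels. They are 3 of KO distal optic vesicle (the prospective retina, called KO vesicle here) and 3 of KO surface ectoderm (called KO ectoderm). The lens normally forms from this ectoderm. The other 6 arrays, 3 each of the same tissues from wild-type (WT) embryos, shared the estimate of the spread and gave the tissue difference with Bmp4 present. All embryos were at stage E10.5 on a mixed C57BL6 and FVB background. In the series title Bmp4 was deleted in the optic vesicle; the labels name neither the Cre line nor the deleted bases, and they give the genotype Bmp4 KO to the ectoderm arrays as well. Tissue was cut by laser from eosin-stained frozen sections of 10 µm, and 15 ng of RNA was amplified for each Illumina bead array. The design text gives 3 embryos per genotype and also speaks of pooled RNA. Arrays 1 to 3 of a group could thus be different embryos or repeated draws from a pool, and in the second case the p-values cover technical variation alone.

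The optic vesicle is an outgrowth of the forebrain. Its wall is divided into neural retina, pigment epithelium and optic stalk under homeobox factors such as Rax, Lhx2, Pax6, Pax2 and Otx2. The ectoderm it touches thickens into the lens placode and makes crystallins, while ectoderm further away becomes epidermis and cornea under AP-2 factors and p63. BMP4, a secreted growth factor of the vesicle, is known to be needed for the ectoderm to form a lens. A captured piece holds many cells, so fewer cells of a type and less RNA per cell cannot be told apart in any value given here.

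Levels are normalised log2 intensities of the probe that stands for a gene, and a difference is KO vesicle minus KO ectoderm on that scale. A gene passed where the limma p-value, adjusted by the Benjamini-Hochberg method over all 11924 genes tested, was below 0.05. A probe was detected on an array where its detection p was below 0.05. Statements on detection are about the probe that stands for the gene. Differing probes are named for some genes only. Of 49 passing genes named here with over 1 kept probe, no other probe passed in the same direction for 30. Where a call did not hold throughout, it is given how many of 12 alternative settings of the processing or the fit kept it, with the highest adjusted p among them. Between 45% and 46.7% of probes were detected per array. Replicates correlated across genes at 0.95 to 0.957 among KO vesicle arrays and at 0.929 to 0.93 among KO ectoderm arrays, against 0.897 to 0.907 between the tissues.

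Bmp4 itself was near background in both KO tissues. Its level was 4.27, 5.18 and 4.31 on the KO vesicle arrays and 5.66, 4.56 and 4.53 on the KO ectoderm arrays, with the probe detected on 1 of 3 arrays of each. The tissues overlapped, and the difference of -0.33 ± 0.45 (SE, n = 3 each) did not pass (adjusted p = 0.774). In WT embryos the same probe read 8.26, 8.30 and 8.22 in vesicle and 5.90, 6.09 and 6.08 in ectoderm, higher in WT vesicle by 2.24 (adjusted p = 0.0127). This change of the tissue difference between the genotypes did not pass (-2.57 ± 0.63, adjusted p = 0.116). A second probe, dimmer over all 12 arrays and with a KO difference of -0.27, was detected on 3 of 3 KO vesicle and 2 of 3 KO ectoderm arrays. Whether either probe lies in the deleted bases is not known from the labels.

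Between the KO tissues, 696 of 11924 genes passed (5.84%), 290 higher in KO vesicle (2.43%) and 406 higher in KO ectoderm (3.4%). The 3 values of one tissue lay wholly on one side of the other tissue's in 691 of the 696, and in 23.1% of all genes. Of the passing genes 554 differed by 1 or more on the log2 scale. Differences of 2 or more were found for 81 genes higher in KO vesicle and 183 higher in KO ectoderm. The median difference of all genes was 0.01. The arrays lay on 2 slides that each held both KO tissues, and all 696 passing genes had the same sign within each slide. Those signs come from the arrays that chose the genes and are a description only. With slide as a block in place of the array number 848 genes passed, and 905 passed with no block.

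**Figure D1:**
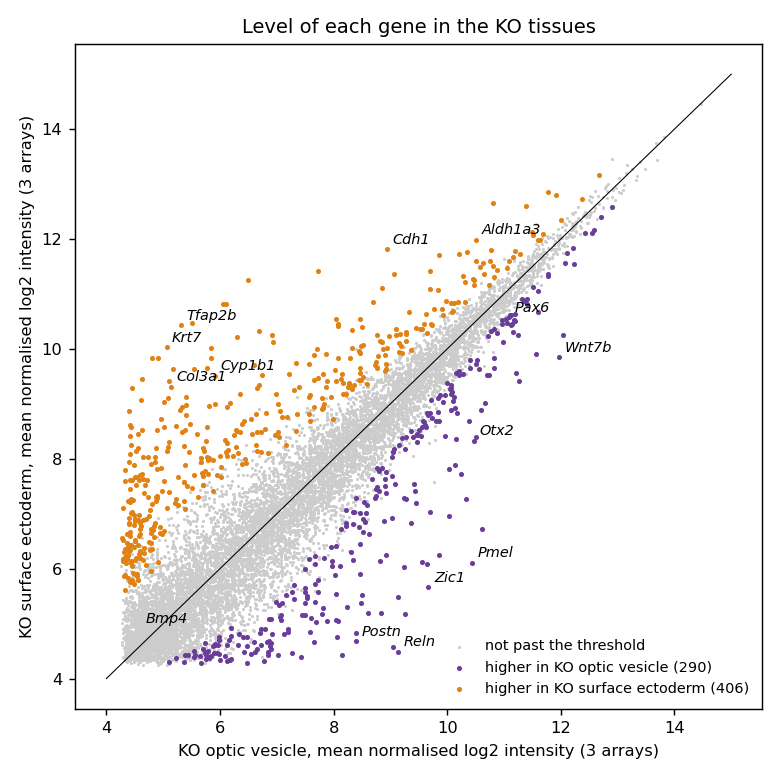
Mean normalised log2 intensity of each of the 11924 genes in KO optic vesicle (x axis) and in KO surface ectoderm (y axis), each the mean of 3 arrays, with the line of equal levels. The 290 genes higher in vesicle lie below the line and the 406 higher in ectoderm above it, and Bmp4 sits at the low end of both axes.

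Of the 15 genes with the largest differences in favour of KO vesicle, 3 were on the pigment epithelium list (Pmel, Trpm1 and Gpnmb), 1 on the eye field list (Nr2e1), 1 on the forebrain list (Zic1), 1 on the mesenchyme list (Postn) and 9 on no list. Reln, which encodes a secreted guide of neuronal position, read 8.75, 9.27 and 9.36 in KO vesicle and 4.31, 4.33 and 4.82 in KO ectoderm. Every vesicle value lay above every ectoderm value, by 4.64 ± 0.37 on average (adjusted p = 7.76e-05). Zic1, a zinc finger factor of neural progenitors, read 9.70, 9.84 and 9.47 in KO vesicle and 6.13, 5.07 and 5.76 in KO ectoderm, a difference of 4.01 ± 0.35 (adjusted p = 0.00011). Nr2e1, an orphan nuclear receptor of forebrain and retinal progenitors, was higher by 3.64, and Ildr2 by 3.91. Lrtm1, a leucine-rich repeat membrane protein, read 9.1, 9.2 and 8.82 in KO vesicle and was detected on no KO ectoderm array. It was at least 19.4-fold higher (adjusted p = 0.000104). Such a bound sets the brighter tissue's mean against, on each dim array, the lowest signal of a detected probe or the gene's own value, whichever is higher. By the same measure Postn, a matrix protein, was at least 12.4-fold higher. The secreted protein gene Wfdc1 differed by 3.73 without detection on any KO ectoderm array. Other Wfdc1 probes, detected on no KO array, differed by 0.24 and 0.26. The other genes among the 15 largest were Pmel, Dipk1c, Lrrn1, Trpm1, Fam171b, Tdrkh, Vat1l and Gpnmb, at 3.41 to 4.33.

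Of the 15 genes with the largest differences in favour of KO ectoderm, 6 were on the surface ectoderm list and 9 on no list. Tfap2b, an AP-2 transcription factor of ectoderm and neural crest, read 5.55, 5.01 and 5.37 in KO vesicle and 10.88, 10.29 and 10.11 in KO ectoderm. Every vesicle value lay below every ectoderm value, and the difference was -5.12 ± 0.33 (adjusted p = 6e-05). Wnt2, a secreted Wnt ligand, read 4.70, 4.84 and 4.89 in KO vesicle and 9.86, 10.10 and 9.56 in KO ectoderm (-5.03 ± 0.36, adjusted p = 7.12e-05). Krt7, a keratin of simple epithelia, differed by -4.97, and Cldn6, a tight junction protein of embryonic epithelia, by -4.96. Trim29, a protein of stratified epithelia, differed by -4.93. The probes used for Bnipl, the homeobox gene Barx2 and the metalloprotease gene Adamts18 were not detected on any KO vesicle array and were at least 23.6-, 17.6- and 14.8-fold higher in KO ectoderm. Another Bnipl probe was detected on 2 KO vesicle arrays and differed by -0.44 (adjusted p = 0.597 in a fit of all probes), and another Adamts18 probe was detected on 1 and differed by -0.95 (adjusted p = 0.125). Tfap2a, Tfap2c, Esrp1, Spint1, Mir205hg, Rab15 and Hapln1 completed the 15, with differences of -4.83 to -4.32.

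**Figure D2:**
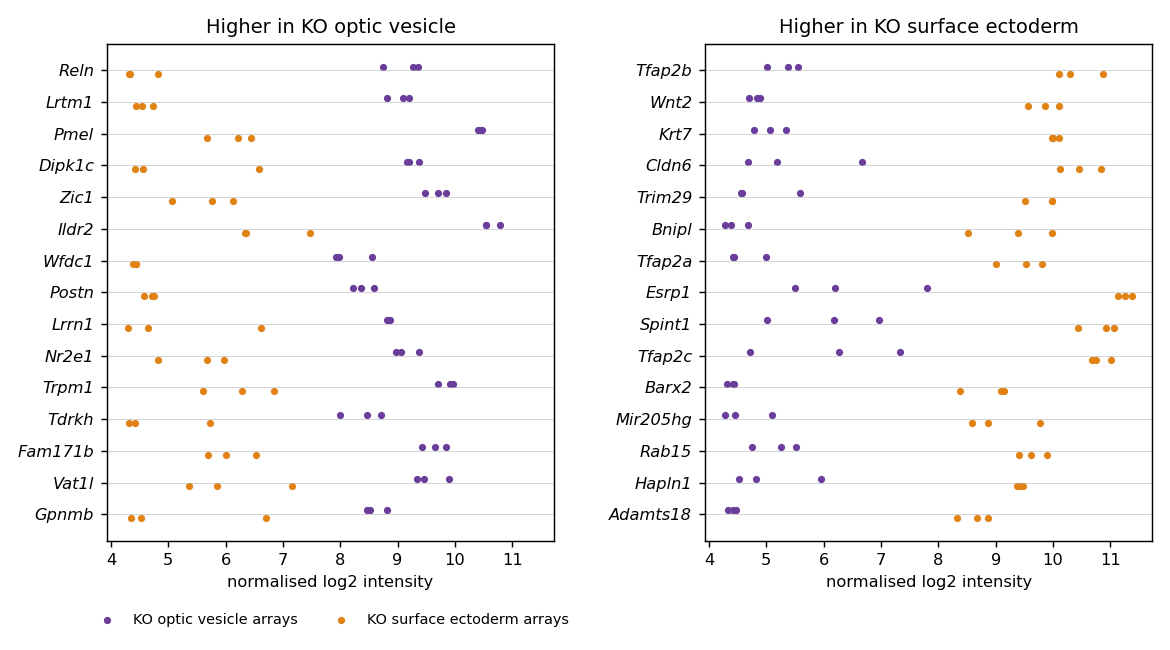
Normalised log2 intensity (x axis) of the 15 genes with the largest passing difference in each direction, 1 point per array, KO optic vesicle above KO surface ectoderm within each row. The genes were chosen for groups that do not overlap, so the separation of the points is fixed by that choice; the plot shows how far the arrays of each tissue spread.

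Genes of the neural retina and eye field were mostly on the vesicle side. Of 20 measured members of that list 10 were higher in KO vesicle, 0 were higher in KO ectoderm and 10 did not pass, with a median difference of 0.76. In all 50% passed, against 5.84% of all genes. Lhx2, a LIM homeobox factor needed for the optic cup, read 8.90, 8.85 and 9.04 in KO vesicle and 7.27, 5.87 and 5.61 in KO ectoderm. The vesicle arrays lay close together and the ectoderm arrays spread lower, for a difference of 2.68 ± 0.41 (adjusted p = 0.00274). Fzd5, a Wnt receptor of the early retina, was higher by 2.69 and Cdh2 (N-cadherin), the adhesion molecule of neural epithelium, by 2.99. Dimmer second probes of Fzd5 and Cdh2 differed by -0.16 and 0.14 without passing (adjusted p = 0.881 and 0.838 in a fit of all probes). Rax, the eye field homeobox gene, read 8.60, 8.01 and 8.80 in KO vesicle and 6.40, 7.48 and 5.47 in KO ectoderm. These groups did not overlap, but the difference of 2.02 was past the threshold with little room (adjusted p = 0.034). Mab21l2, a gene needed for eye growth, differed by 2.02 as well (adjusted p = 0.00748), and the growth factor gene Fgf15 by 1.65 (adjusted p = 0.0323). Pax6, the shared regulator of retina and lens, was only 0.51 higher (adjusted p = 0.0288), with 10.94, 11.13 and 11.19 in KO vesicle against 10.64, 10.52 and 10.57 in KO ectoderm. Sox2 and Six3, transcription factors that retina and lens progenitors share, stood at -0.13 and -0.28 without passing. Leaving out KO arrays, in 9 fits, brought the adjusted p up to 0.204 for Rax, 0.155 for Fgf15, 0.154 for Pax6 and 0.0685 for Mab21l2. Rax lost its call without number 1, number 3 or KO vesicle array 3, Fgf15 without any of the 3 numbers, and Pax6 and Mab21l2 without number 2 or 3. Of the 12 alternatives, Fgf15 passed in 6 (adjusted p up to 0.115), Rax in 9 (0.0799), Pax6 in 9 (0.226) and Fzd5 in 11 (0.0576).

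Optic stalk and ventral genes were divided between the tissues. Pax2, the paired-box factor of the stalk, read 8.73, 8.73 and 8.01 in KO vesicle and 5.2, 6.65 and 4.27 in KO ectoderm, a difference of 3.12 ± 0.45 (adjusted p = 0.00195). A dim second Pax2 probe differed by 0.42 without passing (adjusted p = 0.506 in a fit of all probes). Vax1, a ventral homeobox factor, was higher in KO vesicle by 2.51 and the forkhead gene Foxd1 by 1.67. On the same list of 7 measured genes Cyp1b1 and Aldh1a3 were higher in KO ectoderm and 2 did not pass. The share that passed was 71.4%, against 5.84% of all genes. Cyp1b1, a cytochrome P450 that can make retinoic acid, read 5.83, 6.02 and 5.91 in KO vesicle and 9.67, 9.25 and 9.60 in KO ectoderm. The difference was -3.59 ± 0.27 (adjusted p = 7.38e-05), with a wide gap between the groups. Aldh1a3, a retinoic acid synthesising enzyme, differed by -1.48 (adjusted p = 0.000104).

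Of 8 measured dorsal retina genes 3 were higher in KO ectoderm, 1 in KO vesicle and 4 did not pass. The share that passed was 50%, against 5.84% of all genes. Aldh1a1, the dorsal retinal enzyme of retinoic acid synthesis, read 6.55, 7.19 and 6.41 in KO vesicle and 8.14, 8.57 and 8.71 in KO ectoderm, a difference of -1.76 ± 0.24 (adjusted p = 0.00127). Its near-identical neighbour Aldh1a7 may share its signal. The ephrins Efnb1 and Efnb2, membrane guidance ligands, differed by -2.27 and -1.84. Smoc1, a matrix protein that dampens BMP signalling, was higher in KO vesicle by 2.19. The T-box genes Tbx2, Tbx3 and Tbx5, regulators of the dorsal retina, stood at -0.15, 0.36 and 0.04 and did not pass. The used probes of Tbx2 and Tbx5 were not detected on any KO vesicle array, and those of Tbx3 and Tbx5 on no KO ectoderm array. A second Tbx2 probe was detected on 3 of 3 KO vesicle and 2 of 3 KO ectoderm arrays, with a difference of 0.38 (adjusted p = 0.707). The calls of Smoc1 and Efnb1 did not hold in every fit without KO arrays (adjusted p up to 0.139 and 0.16). Efnb1 was lost without number 2 or 3, and Smoc1 in 7 of the 9 fits, including each fit without a single KO vesicle array. Of the 12 alternatives Smoc1 passed in 10 (adjusted p up to 0.0946) and Efnb1 in 11 (0.0579).

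Pigment epithelium genes gave the highest median of the 24 lists. The lists were chosen with earlier results of these data known, so this rank is a description only. Of 15 measured members 8 were higher in KO vesicle, 1 in KO ectoderm and 6 did not pass. The median was 2.14, and 0.87 to 2.44 over the alternative fits. In all 60% passed, against 5.84% of all genes. Pmel, which encodes the fibril protein of melanosomes, read 10.41, 10.48 and 10.44 in KO vesicle and 5.67, 6.22 and 6.45 in KO ectoderm. The vesicle arrays were almost equal and far above the others, by 4.33 ± 0.37 (adjusted p = 0.00011). Trpm1, a cation channel of melanocytes, differed by 3.62 and Dct, a melanin enzyme, by 3.06. The probe used for Tyrp1, another melanin enzyme, read 7.52, 7.25 and 7.53 in KO vesicle, was detected on no KO ectoderm array and was at least 6.38-fold higher (adjusted p = 0.000213). A dim second Tyrp1 probe was detected on 1 KO ectoderm array and differed by 0.41 without passing (adjusted p = 0.375). Otx2, the homeobox factor of the pigment epithelium, read 10.59, 10.35 and 10.48 in KO vesicle and 8.11, 8.45 and 8.42 in KO ectoderm, a difference of 2.14 ± 0.23 (adjusted p = 0.000349). Rlbp1, a retinoid carrier, was higher by 2.73, Rab27a, which moves melanosomes, by 2.84, and the melanosome glycoprotein Gpnmb by 3.41. Otx1, a relative of Otx2, went the other way at -1.15 (adjusted p = 0.0239). Mitf, the regulator of pigment cells, had probes that disagreed. The brighter one read a difference of 0.36 (adjusted p = 0.662) and a second one 2.93 (adjusted p = 0.00288 in a fit of all probes). The calls of Rab27a and Gpnmb were lost without number 2 or 3 (adjusted p up to 0.0728 and 0.0744), and that of Otx1 in 5 of 9 fits (up to 0.145), without number 1 or 2, KO ectoderm array 1 or 2, or KO vesicle array 2. Otx1 passed in 11 of the 12 alternatives (up to 0.0877).

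The promoters of 3 of these genes are shown because they carry a short word in common. CATGTG, the core of the box that MITF-family factors bind, was searched on both strands of the 250 bases before each start site in the promoter table. It was present for 5 of the 7 genes among the 8 whose promoter was at hand (Dct, Otx2, Rlbp1, Trpm1 and Tyrp1) and in 12.3% of all 32851 promoters. A gene counted where any of its promoters held the word, while the share is over single promoters. Genes with several promoters thus had more chances to hold it. The words were chosen with the differences known, so these counts are a description only. Sequences are from RefSeq on GRCm38.p6, 5′ to 3′ on the gene's strand and ending at the base before the table's start site, with CATGTG or its reverse complement CACATG in capitals.
Tyrp1 (chr4:80833963-80834212, plus strand): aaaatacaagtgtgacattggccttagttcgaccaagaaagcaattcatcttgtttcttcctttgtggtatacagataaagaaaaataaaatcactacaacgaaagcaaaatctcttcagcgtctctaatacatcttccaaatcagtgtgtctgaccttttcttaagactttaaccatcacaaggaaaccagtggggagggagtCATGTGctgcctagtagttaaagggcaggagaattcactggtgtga
Dct (chr14:118052247-118052496, minus strand): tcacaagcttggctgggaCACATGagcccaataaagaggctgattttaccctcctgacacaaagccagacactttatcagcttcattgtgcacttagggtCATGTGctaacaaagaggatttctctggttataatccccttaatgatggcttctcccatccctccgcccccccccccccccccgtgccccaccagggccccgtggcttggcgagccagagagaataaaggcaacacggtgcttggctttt
Trpm1 (chr7:64153585-64153834, plus strand): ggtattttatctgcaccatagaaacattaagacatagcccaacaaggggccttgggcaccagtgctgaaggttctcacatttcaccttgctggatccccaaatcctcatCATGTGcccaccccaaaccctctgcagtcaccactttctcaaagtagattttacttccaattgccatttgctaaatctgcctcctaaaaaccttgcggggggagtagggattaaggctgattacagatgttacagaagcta
The word begins 46 bases before the start site of Tyrp1, 232 and 150 bases before that of Dct and 141 bases before that of Trpm1. The last 90 bases of the Tyrp1 window lie within the annotated bounds of the gene, which begin at 80834123. Trpm1 also holds the gene of miR-211, a microRNA of pigment cells, within its bounds (chromosome 7, 64153835 to 64269772). The array read the host transcript and not the microRNA, so no level of miR-211 is given. Its mature form, at chr7:64205831-64205852 on the plus strand, is shown with the seed, bases 2 to 8, in capitals.
mmu-miR-211-5p: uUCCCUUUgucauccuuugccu

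Surface ectoderm genes gave the lowest median of the 24 lists. Of 31 measured members 24 were higher in KO ectoderm, 0 in KO vesicle and 7 did not pass (median -3.16). The share that passed was 77.4%, against 5.84% of all genes. The 24 include Wnt6, kept by the detection filter only through KO ectoderm arrays. They also include Esrp2, detected on 2 KO ectoderm arrays, 1 WT ectoderm array and no vesicle array. For these genes passing is a description only. The lists were chosen with earlier results of these data known, so the rank of the median is a description too. Trp63 (p63), the regulator of stratified epithelium, read 8.60, 8.29 and 8.85 in KO ectoderm, was not detected on any KO vesicle array and was at least 14.4-fold higher in KO ectoderm (adjusted p = 0.000143). The AP-2 factors Tfap2a and Tfap2c differed by -4.83 and -4.72. All 5 kept probes of Tfap2a gave the same direction, at -4.83 to -3.93. Grhl2, a grainyhead factor of epithelial barriers, differed by -3.88, and Dlx3 and Dlx5, homeobox genes of non-neural ectoderm, by -3.91 and -3.63.

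Epithelial adhesion, keratin and protease genes lay on the same side. Cdh1 (E-cadherin), the main epithelial adhesion molecule, read 8.55, 9.42 and 8.85 in KO vesicle and 11.80, 11.72 and 11.96 in KO ectoderm, a difference of -2.88 ± 0.22 (adjusted p = 7.38e-05). Epcam, an epithelial surface protein, differed by -3.61, and the keratins Krt8 and Krt18 by -3.14 and -1.51. Esrp1, a splicing regulator of epithelia, read 7.81, 6.19 and 5.49 in KO vesicle and 11.25, 11.38 and 11.14 in KO ectoderm. The vesicle arrays were spread over more than 2 log2 units and the ectoderm arrays were close together. The membrane protease inhibitors Spint1 and Spint2 differed by -4.76 and -2.30, their target protease St14 by -3.55, the desmosome protein Pkp3 by -3.16, Perp, a p63 target of desmosomes, by -3.73, and Rab25, an epithelial trafficking GTPase, by -3.38. The probe used for Wnt6, a Wnt ligand of ectoderm, was not detected on any KO vesicle array and was at least 12.8-fold higher in KO ectoderm (adjusted p = 9.16e-05). This probe passed the detection filter only through the KO ectoderm arrays, so its p-value is a description only. Another Wnt6 probe was detected on 1 KO vesicle array and differed by -1.61 (adjusted p = 0.00651).

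Promoters of 4 of these epithelial genes are shown for another shared word. CACCTG, the E-box that Snail and Zeb repressors bind, was searched in the same way. It was present for 8 of the 13 genes among the 24 whose promoter was at hand (Ap1m2, Cldn6, Cldn7, Epcam, Krt18, Krt8, Rab25 and Spint2) and in 17.2% of all promoters. For this and the words below, genes were again counted over all their promoters and the shares over single promoters. Of the 7 pigment genes 1, Rab27a, held it, and 0 of the 13 ectoderm genes held CATGTG. The AP-2 word GCCNNNGGC was present for 4 of the 13 ectoderm genes and 1 of the 7 pigment genes, against 13.7% of all promoters. The grainyhead word AACCGGTT was present for 0 of the genes of both sets, against 0.116%. The words CACGTG and TAATCC were present for 2 and 3 of the 7 pigment genes and 0 of the 13 ectoderm genes, against 6.02% and 6.25%. No word searched contains another. CACCTG and its reverse complement CAGGTG are in capitals below.
Cldn6 (chr17:23679115-23679364, plus strand): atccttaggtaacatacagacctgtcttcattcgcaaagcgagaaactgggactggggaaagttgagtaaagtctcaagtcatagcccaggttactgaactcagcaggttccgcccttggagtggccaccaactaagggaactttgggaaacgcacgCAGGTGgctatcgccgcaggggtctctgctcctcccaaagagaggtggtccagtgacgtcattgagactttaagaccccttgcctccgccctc
Epcam (chr17:87635729-87635978, plus strand): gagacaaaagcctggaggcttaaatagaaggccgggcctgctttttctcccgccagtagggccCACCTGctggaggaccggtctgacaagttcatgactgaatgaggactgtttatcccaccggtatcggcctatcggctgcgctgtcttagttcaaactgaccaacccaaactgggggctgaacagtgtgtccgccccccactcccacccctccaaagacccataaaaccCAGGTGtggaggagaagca
Krt8 (chr15:102004343-102004592, minus strand): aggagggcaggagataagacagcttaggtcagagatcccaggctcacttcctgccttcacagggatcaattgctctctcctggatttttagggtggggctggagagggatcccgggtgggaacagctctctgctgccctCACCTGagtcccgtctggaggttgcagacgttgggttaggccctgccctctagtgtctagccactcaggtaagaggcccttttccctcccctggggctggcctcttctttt
Rab25 (chr3:88548280-88548529, minus strand): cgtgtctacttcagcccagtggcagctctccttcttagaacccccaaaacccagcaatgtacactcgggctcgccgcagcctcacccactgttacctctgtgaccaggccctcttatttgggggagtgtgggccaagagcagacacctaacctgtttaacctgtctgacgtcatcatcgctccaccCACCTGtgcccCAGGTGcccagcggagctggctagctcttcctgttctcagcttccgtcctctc
Cldn6 and Krt8 carry 1 site each, beginning 93 and 111 bases before the start site, and the last 17 bases of the Cldn6 window lie within the annotated gene, which begins at 23679348. Epcam and Rab25 carry 2 each, at 187 and 19 bases and at 64 and 53 bases.

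Mir205hg, the host transcript of the epithelial microRNA miR-205, was among the leading ectoderm genes. It read 5.10, 4.28 and 4.45 in KO vesicle, detected on 1 of 3 arrays, and 8.58, 9.77 and 8.86 in KO ectoderm (-4.46 ± 0.48, adjusted p = 0.000352). The microRNA lies within the host (chromosome 1, 193506460 to 193510210), at chr1:193507503-193507524 on the minus strand, and its own level was not measured. It is shown with its seed in capitals.
mmu-miR-205-5p: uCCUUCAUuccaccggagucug

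**Figure D3:**
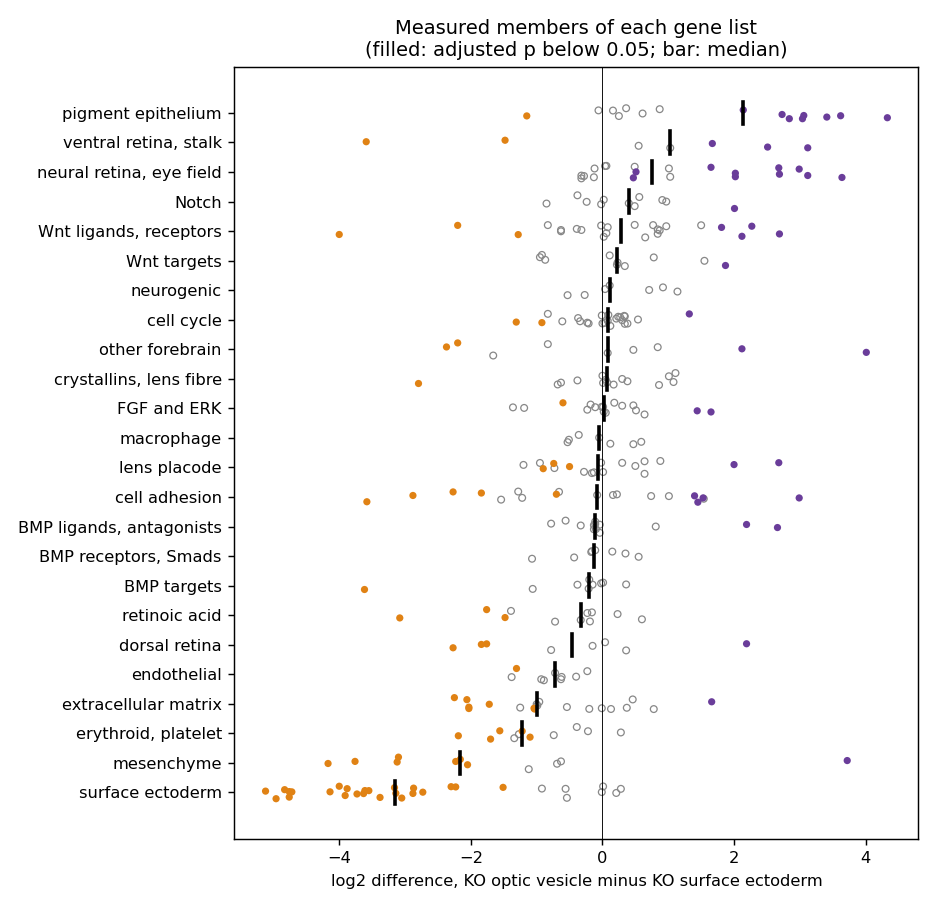
Difference between KO optic vesicle and KO surface ectoderm (x axis, log2) for every measured member of the 24 gene lists (rows, ordered by median); filled points passed at adjusted p below 0.05 and the bar is the list's median. Pigment epithelium genes lie at the vesicle end with a median of 2.14 and surface ectoderm genes at the other end with -3.16, while the crystallin, FGF and BMP lists lie around 0. Lists and members were chosen with earlier results of these data known, so the order is a description only.

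Of 18 measured lens placode genes 2 were higher in KO vesicle, 3 in KO ectoderm and 13 did not pass (median -0.07), so that 27.8% passed, against 5.84% of all genes. Of 15 crystallin and lens fibre genes 1 was higher in KO ectoderm and 14 did not pass (median 0.07), a share of 6.67%, near that of all genes. Of these 15, 3 were detected on no KO vesicle array and 4 on no KO ectoderm array. The used probes of Crybb3, Crygc and Cryba2 were detected in neither KO tissue and were kept by the filter through WT arrays. For such genes not passing does not show equal levels. In WT embryos 8 lens placode genes and 8 crystallin and lens fibre genes were higher in ectoderm, as were 3.71% of all genes. The crystallin count in WT embryos includes Crybb3, Crygc and Cryba2. Prox1, which drives lens fibre differentiation, read 6.18, 5.65 and 6.95 in KO vesicle and 5.19, 5.38 and 5.56 in KO ectoderm. These values did not overlap, but the difference of 0.88 did not pass (adjusted p = 0.191), against -2.61 in WT embryos (adjusted p = 0.00114). The 2 differences themselves differed by 3.49 ± 0.49 (adjusted p = 0.0123). Pitx3 and Foxe3, lens transcription factors, were not detected on any KO array of either tissue and were detected on 3 of 3 WT ectoderm arrays. Their tissue differences differed between the genotypes by 3.09 and 1.86 (adjusted p = 0.00878 and 0.0316). Pitx3 and Foxe3 passed the detection filter only through WT arrays, so these p-values are a description only.

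Among crystallins, Cryge read 6.65, 8.28 and 6.35 in KO vesicle and 4.75, 7.09 and 6.2 in KO ectoderm. The KO tissues overlapped and the difference of 1.08 did not pass (adjusted p = 0.193), while WT embryos gave -3.85. Gamma crystallin genes resemble each other, so this probe may read several. Crybb3, a beta crystallin, had a used probe detected on 0 of the 6 KO arrays and a second one detected on 1 KO vesicle and 1 KO ectoderm array. Its difference of 0.01 stood against -3.74 in WT embryos. The interaction passed for both genes (adjusted p = 0.00712 each). The used Crybb3 probe passed the detection filter only through WT arrays, so its p-value is a description only. The 1 member of the list higher in KO ectoderm was Crym, a thyroid hormone binding protein named a crystallin from its role in marsupial lenses, at -2.80 (adjusted p = 0.00249). Of the lens placode list Meis1 and Meis2, homeobox factors upstream of Pax6, stood at -0.50 and -0.90. Jag1, a Notch ligand, read 8.61, 8.40 and 8.89 in KO vesicle and 6.99, 6.67 and 6.23 in KO ectoderm, higher in KO vesicle by 2.00 ± 0.25 (adjusted p = 0.000796). The call of Meis1 was lost without any of the 3 numbers (adjusted p up to 0.109). Of the 12 alternatives Meis1 passed in 9 (up to 0.488) and Meis2 in 10 (up to 0.0672).

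Of 13 measured BMP ligands and antagonists 2 were higher in KO vesicle and 11 did not pass (median -0.11). The share that passed was 15.4% there, 0% of receptors and Smads and 11.1% of BMP targets, against 5.84% of all genes. The 2 were Smoc1 and Fst (follistatin), which binds activins and BMPs. Fst read 7.38, 7.93 and 7.76 in KO vesicle and 6.31, 4.32 and 4.47 in KO ectoderm, a difference of 2.66 ± 0.51 (adjusted p = 0.0112) that was lost without number 2 or 3 (up to 0.0858). Of 8 measured receptors and Smads 0 passed (median -0.13), with Bmpr1a at -0.11 and Smad1 at -0.43. At an unadjusted p below 0.05 the whole comparison had 2276 genes. Of 9 measured BMP target genes Dlx5 was higher in KO ectoderm and 8 did not pass, among them Id1 at -0.02 and Id3 at 0.01, inhibitors of helix-loop-helix factors. Id1 read 7.81, 5.83 and 6.31 in KO vesicle and 7.19, 6.02 and 6.80 in KO ectoderm, and the tissues overlapped.

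Of 17 FGF and ERK genes 2 were higher in KO vesicle, 1 in KO ectoderm and 14 did not pass (median 0.02), a share of 17.6%, against 5.84% of all genes. Fgf15 and Fgfbp3, a carrier that releases FGFs from matrix, were the 2, and the receptor gene Fgfr2 differed by -0.60 (adjusted p = 0.00952). Dusp6 and Etv5, genes that FGF signalling turns on, stood at -0.11 and -0.01. Etv5 was detected on 1 of 3 arrays in each KO tissue. Without KO arrays the adjusted p reached 0.127 for Fgfbp3, without number 1 or 3, and 0.0717 for Fgfr2, without number 2 or 3. Each passed in 11 of the 12 alternatives (up to 0.0686 for Fgfbp3 and 0.305 for Fgfr2).

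Wnt ligands and receptors had members at both ends. Of 24 measured, 4 were higher in KO vesicle, 3 in KO ectoderm and 17 did not pass (median 0.28). The share that passed was 29.2%, against 5.84% of all genes. The ligand Wnt2, given above among the leading ectoderm genes, was not on this list and is missing from these counts. Wnt7b, a ligand of forebrain and pigment epithelium, read 12.15, 11.99 and 11.78 in KO vesicle and 10.10, 10.06 and 9.39 in KO ectoderm, higher in KO vesicle by 2.12 ± 0.18 (adjusted p = 0.00011). Sfrp1, a secreted Wnt inhibitor, was higher by 2.27. Wnt6, Rspo1, a secreted Wnt agonist, and Dkk3 were higher in KO ectoderm, with differences of -4.00, -2.20 and -1.28. The Wnt6 probe was kept only through the KO ectoderm arrays, so its place in this count is a description only. Of 10 measured Wnt target genes Sp5, a Wnt-induced transcription factor, was higher in KO vesicle by 1.87 (adjusted p = 0.0201) and 9 did not pass, with Axin2 at -0.87. The share of Wnt targets that passed was 10%, against 5.84% of all genes. The call of Sp5 was lost in 5 of 9 fits (adjusted p up to 0.121), without number 1 or 3, KO vesicle array 3, or KO ectoderm array 1 or 3. Of the 12 alternatives Sp5 passed in 9 (up to 0.119) and Rspo1 in 11 (up to 0.0671). Of 11 Notch genes 1, Jag1, passed (9.09%, against 5.84% of all genes).

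Of 11 measured retinoic acid genes 3 were higher in KO ectoderm, 0 in KO vesicle and 8 did not pass (median -0.33). The share that passed was 27.3%, against 5.84% of all genes. Besides Aldh1a1 and Aldh1a3 the 3 included Crabp1, a cytosolic retinoic acid binding protein. Crabp1 read 5.58, 6.27 and 5.91 in KO vesicle and 8.97, 8.79 and 9.25 in KO ectoderm, a difference of -3.08 ± 0.37 (adjusted p = 0.000684) with no overlap.

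Cadherins split by tissue. Cdh2 read 7.66, 7.69 and 7.61 in KO vesicle and 4.45, 5.01 and 4.53 in KO ectoderm, where it was detected on 1 of 3 arrays (2.99 ± 0.40, adjusted p = 0.00121). Its dim second probe differed by 0.14 without passing. Cdh1 and Cdh3 (P-cadherin) lay on the ectoderm side at -2.88 and -3.58. Of 19 measured adhesion genes 4 were higher in KO vesicle, 5 in KO ectoderm and 10 did not pass (median -0.08). In all 47.4% passed, against 5.84% of all genes. Cdh11, a cadherin of mesenchyme and early retina, was higher in KO vesicle by 1.40 (adjusted p = 0.0299), a call lost without any of the 3 numbers (up to 0.153) and kept in 10 of the 12 alternatives (up to 0.088).

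Basement membrane and matrix genes leaned to KO ectoderm, with 7 of 19 higher there, 1 higher in KO vesicle and 11 not passing (median -0.99). In all 42.1% passed, against 5.84% of all genes. Fn1 (fibronectin) read 8.16, 8.18 and 8.62 in KO vesicle and 10.37, 10.36 and 10.33 in KO ectoderm (-2.03 ± 0.18, adjusted p = 0.00011). Hspg2 (perlecan), Col4a1, a basement membrane collagen, and Agrn (agrin) differed by -2.06, -1.72 and -1.03, and Col18a1 by -1.04. Tnc (tenascin C) was not detected on any KO vesicle array and was at least 3.8-fold higher in KO ectoderm. Another Tnc probe differed by -2.23 (adjusted p = 0.0102 in a fit of all probes). The remaining Tnc probes were detected on no KO array and differed by -0.14 to 0.03. Col9a1, a collagen of the early retina and vitreous, was the 1 gene higher in KO vesicle, by 1.66 (adjusted p = 0.000936). The call of Hspg2 was lost without number 2 or 3 (adjusted p up to 0.0658) and that of Tnc without number 1 (0.0544). Of the 12 alternatives Tnc passed in 11 (up to 0.163) and Col18a1 in 11 (up to 0.0808).

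Markers of neighbouring cell types were also higher in KO ectoderm. Of 11 measured mesenchyme markers 7 were higher in KO ectoderm, 1 in KO vesicle and 3 did not pass (median -2.16). In all 72.7% passed, against 5.84% of all genes. The summed linear level of the 11 markers was 915 to 1110 on KO vesicle arrays and 3792 to 3897 on KO ectoderm arrays. Col3a1, a fibrillar collagen, read 4.93, 5.06 and 5.43 in KO vesicle and 9.54, 9.14 and 9.25 in KO ectoderm (-4.17 ± 0.51, adjusted p = 0.000771). Foxc1, Foxc2, Twist1 and Alx4, transcription factors of the periocular and head mesenchyme, differed by -3.76, -3.10, -3.12 and -2.23, and the growth factor receptor gene Pdgfra by -2.05. The defining markers Col1a1, Twist2, Pdgfrb, Dcn and Lum were not among the genes measured. Postn, a matrix protein of the same list, went the other way and was detected on no KO ectoderm array. The part of mesenchyme in the ectoderm differences, among them Fn1, Col4a1, Tfap2b and Crabp1, was not tested. The call of Alx4 was lost without number 2 or 3 (adjusted p up to 0.163) and kept in 10 of the 12 alternatives (up to 0.24), and that of Pdgfra in 11 (up to 0.117).

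Blood markers mostly lay on the same side. Vessel markers did so in sign, with 1 passing. Of 11 erythroid and platelet markers 5 were higher in KO ectoderm and 6 did not pass (median -1.22). The share that passed was 45.5%, against 5.84% of all genes. The summed level of these markers was 5560 to 5829 on KO vesicle arrays and 12463 to 14004 on KO ectoderm arrays. The embryonic globin Hba-x read 8.56, 8.26 and 8.14 in KO vesicle and 10.21, 9.94 and 9.91 in KO ectoderm (-1.70 ± 0.22, adjusted p = 0.000971). Globin genes resemble each other, so the calls of Hba-x, Hba-a1, Hbb-bh1 and Hbb-y may not be separate. The call of Hbb-bh1 was kept in 11 of the 12 alternatives (adjusted p up to 0.0576). Of 9 endothelial markers Pecam1 was higher in KO ectoderm (-1.31, adjusted p = 0.00768, kept in 10 of the 12 alternatives with p up to 0.101) and 8 did not pass. The share was 11.1%, against 5.84% of all genes, and all 9 differences were negative. The endothelial sums were 402 to 454 in KO vesicle and 723 to 781 in KO ectoderm. Of 7 macrophage markers 0 passed (median -0.05), too few markers for the count to be read against 5.84% of all genes. The macrophage sums were 189 to 214 in KO vesicle and 177 to 322 in KO ectoderm. C1qa was at background on each KO array, and Csf1r and Cd68 were not among the genes measured. The part of blood and vessel cells in the other differences was not tested.

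**Figure D4:**
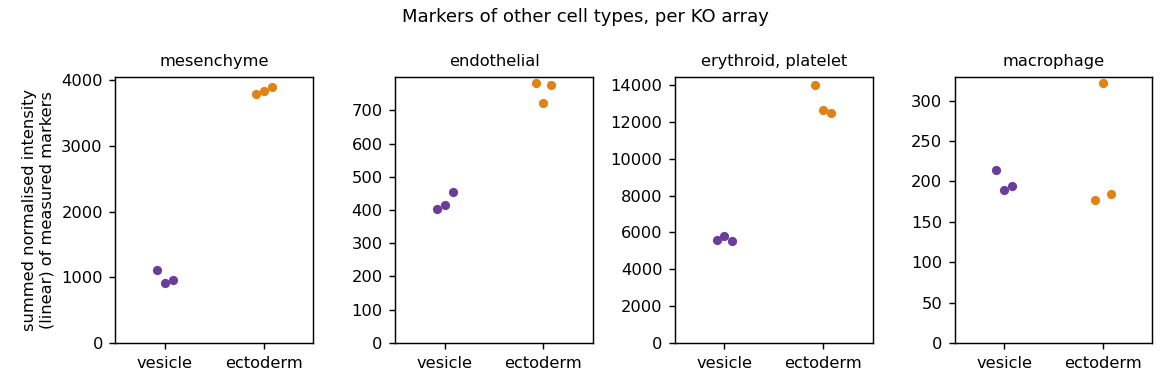
Summed normalised intensity (y axis, linear scale) of the measured markers of 4 other cell types, 1 point per array, KO optic vesicle left of KO surface ectoderm. Mesenchyme, endothelial and erythroid sums are higher on all 3 ectoderm arrays, while the macrophage sums overlap.

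The tissue labels were checked against defining markers. Those of surface ectoderm summed to 2455 to 2882 on KO vesicle arrays and 23001 to 24801 on KO ectoderm arrays. Markers of the neural retina and eye field summed to 9685 to 10137 in KO vesicle and 5388 to 6513 in KO ectoderm.

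The KO tissue difference was then set beside the WT one, in which 805 genes passed (6.75%). Of the 696 KO genes 279 passed in WT embryos with the same sign, which is 40.1% of the KO genes and 34.7% of the WT genes. Among them were the AP-2 factor Tfap2a, with -4.83 in KO and -4.94 in WT embryos, and the tight junction gene Cldn6, with -4.96 in KO and -5.26 in WT embryos. A direct test of the change in tissue difference (the interaction) passed for 89 genes (0.746%), 52 with a more positive and 37 with a more negative difference in KO embryos. Of these, 49 had passed in KO embryos and 62 in WT embryos. The count depended on the arrays: without KO arrays number 1, 2 or 3 it was 51, 44 and 15, and it was 168 without the number block.

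In 9 genes the tissue difference passed in both genotypes with opposite sign, and the interaction passed for all 9. The difference of Cyp1b1 was -3.59 in KO and 1.84 in WT embryos, where it read 9.70, 9.83 and 9.49 in vesicle and 8.14, 7.52 and 7.85 in ectoderm. The interaction was -5.42 ± 0.38 (adjusted p = 0.000171). Aldh1a1 did likewise, at -1.76 in KO and 2.94 in WT embryos (-4.70 ± 0.33, adjusted p = 0.000171). Col18a1, the source of endostatin, stood at -1.04 in KO and 0.74 in WT embryos, and 4930563E22Rik at -1.47 in KO and 1.47 in WT embryos. The opposite pattern was found for Ntrk2, the receptor of the neurotrophin BDNF, at 1.94 in KO and -2.05 in WT embryos, with its KO call kept in 10 of the 12 alternatives (adjusted p up to 0.166). It was also found for the transmembrane collagen Col13a1 at 2.29 in KO and -1.52 in WT embryos. Other probes of Ntrk2 differed by 0.22 and 0.07 in KO embryos, and a second Col13a1 probe by 0.57. None of these passed in a fit of all probes. Pax6 stood at 0.51 in KO and -0.54 in WT embryos (1.05 ± 0.17, adjusted p = 0.0185). The lysosomal protease gene Ctsc and the glucose transporter gene Slc2a1 completed the 9, at 2.03 and 0.51 in KO and -2.05 and -0.38 in WT embryos. 4930563E22Rik, Ctsc and Slc2a1 lie outside the naming rule and complete this count.

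Other tissue differences were seen in KO embryos and not in WT embryos, with the interaction passing. Cdh2 differed by 2.99 in KO and -0.55 in WT embryos (3.54 ± 0.56, adjusted p = 0.0186). The Cdh2 probe in use read 7.18, 7.43 and 7.73 in WT vesicle and 8.50, 7.90 and 7.59 in WT ectoderm, so KO ectoderm was the low group by this probe. The Wnt6 probe in use was detected on 0 of the 6 WT arrays, and its interaction was -3.70 ± 0.46 (adjusted p = 0.00712). It passed the detection filter only through the KO ectoderm arrays, where it was high, so its p-value is a description only. Tyrp1 stood at 3.04 in KO and 0.13 in WT embryos, Lrtm1 at 4.47 in KO and 0.64 in WT embryos, Postn at 3.72 in KO and 0.35 in WT embryos, and Trim29 at -4.93 in KO and -0.74 in WT embryos. Twist1, the mesenchyme factor, stood at -3.12 in KO and -0.17 in WT embryos. Differences that were larger in WT embryos were those of Cdh11 (1.40 in KO and 5.04 in WT embryos), Fgf15 (1.65 in KO and 4.67 in WT embryos), Slc38a8, an amino acid transporter (1.79 in KO and 4.61 in WT embryos), Foxd1 (1.67 in KO and 3.64 in WT embryos) and Pdgfra (-2.05 in KO and -5.36 in WT embryos).

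**Figure D5:**
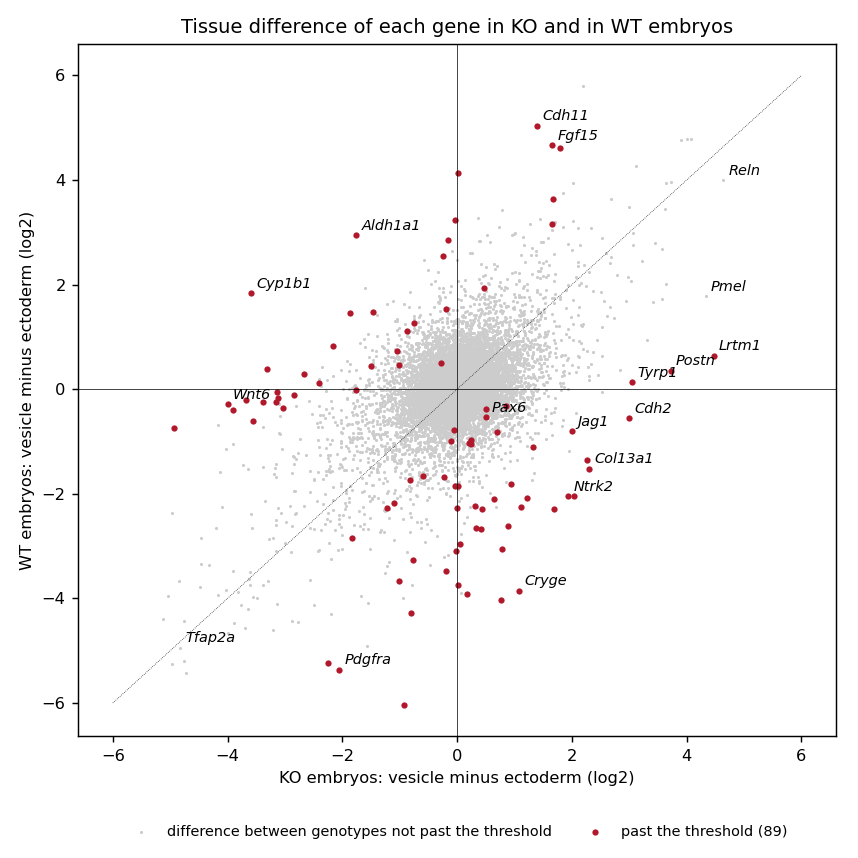
Tissue difference of each gene, vesicle minus ectoderm on the log2 scale, in KO embryos (x axis) and in WT embryos (y axis), with the dotted line of equal differences. The 89 genes in red are those whose differences differed between the genotypes, among them Cyp1b1 and Aldh1a1 at the upper left and Col13a1 and Ntrk2 in the lower right.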

How the data were processed

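The authors deposited, per probe and array, mean bead intensity values on a linear scale with a detection p-value, a bead standard error (also intensity) and a bead count (other), per the file headers. GenomeStudio is named in the submitters' processing notes, with its version not given in the sources used here. These values were neither background-subtracted nor normalised. The authors' deposited processed matrix (intensity, linear, median 9.4 to 9.42 per column, background option and centring unstated) ranked probes like each array's own scanner values (Spearman rho 1) and served as an alternative. Each array had a median of 40 to 43 beads per probe, and the number of arrays limits the precision.

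For the present comparison, limma 3.58.1 (R 4.3.3) normalised the intensities by neqc (controls inferred from detection p, offset 16, quantile, log2). Probes detected at p below 0.05 on at least 3 of 12 arrays were kept (24978 of 45281). Detection in each group was not asked for, so a gene could be kept only through the group where it was high. In the platform annotation 34885 probes have 1 symbol, 18 several and 10378 none, and only the first were named; updating them changed 0 symbols. The brightest kept probe stood for each of 11924 genes. Differences were tested two-sided by limma's lmFit and trended eBayes over 12 arrays, the array number within genotype entering as a block, Benjamini-Hochberg adjusted over all genes. The block assumes that a number marks an embryo, which the labels do not state; deviations of same-numbered arrays correlated at -0.03 to -0.02 in KO and 0 to 0.02 in WT embryos, so the values gave no sign of pairing, and counts without the block are given beside those with it. Slide was tested as a block and within slides. The WT tissue contrast and the interaction came from the same fit.

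Genes were named by rule: Bmp4, the 15 largest passing differences in each direction without overlap, up to 4 members of each of 24 gene lists with the lowest p, all members of lists of up to 12 genes, and the 8 interactions with the lowest adjusted p. This gave 130 genes. A further 37 were added after their values were seen, among them Trp63, Epcam, Krt8, Pax6, Rax, Dct, Prox1, Pitx3, Foxe3, Foxc2, Cdh11 and Tnc; list counts cover every measured member. Lists and members were chosen with earlier results of these data known. Promoter and microRNA sequences came from RefSeq tables of GRCm38.p6 and were searched with Python 3.11.15. On simulated data of 11924 genes for this comparison, 24.2%, 67.2% and 91% of genes changed by 1, 2 and 3 on the log2 scale were recovered, with 8 false among 130 calls. The simulation changed fewer genes than passed in the data and drew independent noise for each array. These rates therefore need not hold for the data.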

Additional observations from a re-analysis of the deposited data

Results flagged for a closer look

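All of these values were picked out because the tissue difference in KO embryos differed from that in WT embryos by the interaction test, 89 genes in all. Each value is the KO difference minus the WT difference on the log2 scale, and differences are vesicle minus ectoderm. Lens genes and crystallins had positive values, where the WT ectoderm excess was smaller or lacking in KO embryos: Cryge 4.93, Crybb3 3.75, Prox1 3.49, Cryba1 3.37, Pitx3 3.09 and Foxe3 1.86, with Pax6 at 1.05. Adhesion, matrix and signalling genes with positive values were Has2 3.84, Col13a1 3.82, Cdh2 3.54, Postn 3.37, Tnc 2.99, Jag1 2.80 and Fgfr2 1.06. Ntrk2 stood at 4.00, Lrtm1 at 3.83, Pdgfra at 3.31, Tyrp1 at 2.91 and Atp1b3, a sodium pump subunit, at 1.21. The globins Hbb-y and Hbb-bh1 stood at 1.08 and 1.05.

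Negative values, where the KO difference lay further to the ectoderm side, included the retinoic acid enzymes Cyp1b1 at -5.42 and Aldh1a1 at -4.70, and the epithelial and ectodermal genes Trim29 at -4.19 and Wnt6 at -3.70. Vesicle genes whose excess was smaller in KO embryos were Cdh11 at -3.64, Fgf15 at -3.02, Slc38a8 at -2.82, Foxd1 at -1.98 and the creatine kinase gene Ckb at -1.47. The KO tissue call of Ckb was kept in 9 of the 12 alternatives (adjusted p up to 0.208). It was lost without KO number 1 or 3 (adjusted p up to 0.149). Twist1 stood at -2.95 and Col18a1 at -1.78.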

How the results depend on the processing

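The KO tissue comparison gave 538 to 870 genes, against 696, under other background corrections, scalings, probe rules, array weights, slide blocks and the authors' matrix, and with probes detected throughout a KO group. It gave 450 without the detection filter, where 19057 genes were tested, and 428 from the KO arrays alone. Within slide 1, with 1 vesicle and 2 ectoderm arrays, it gave 57, and within slide 2, with 2 and 1, it gave 371. Leaving out both KO arrays of number 1, 2 or 3 gave 422, 452 and 374. Leaving out a single KO array also dropped the replicate block and gave 638 to 838, to be read against 905 without the block; over all these fits the range was 374 to 838. Without the replicate block 905 genes passed, of which 682 were among the 696. The interaction count of 89 was 40 in the authors' matrix, 38 without the filter, 168 with no replicate block, 161 with a slide block in its place, and 51, 44 and 15 without KO numbers 1, 2 and 3. Without a single KO ectoderm array, and with no block, it was 163, 153 and 156, to be read against 168; the range over left-out KO arrays was 15 to 163. The WT count of 805 was 519 without the filter. Among 109 named genes that passed, 2507 values were compared, with 0 reversed and 228 not past the threshold; 83 passed in every alternative other than single slides and left-out arrays. Of these 109 genes 12, 16 and 19 lost their call without KO number 1, 2 or 3. Of 49 with over 1 kept probe, another probe passed in the same direction for 19. List medians kept their sign except those of other forebrain genes (-1.25 to 0.32), lens placode genes (-0.22 to 0.10), BMP receptors (-0.24 to 0.13), FGF genes (-0.06 to 0.27), Wnt targets (-0.01 to 0.42), adhesion genes (-0.43 to 0.15) and macrophage markers (-0.15 to 0.59). Signal over background limits folds for the 41 genes higher in KO vesicle and the 70 higher in KO ectoderm that were undetected in the other tissue.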

Other observations

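Of 24 measured cell cycle genes 1 was higher in KO vesicle, 2 were higher in KO ectoderm and 21 did not pass (median 0.09), a share of 12.5%, against 5.84% of all genes. Cdkn1c (p57), an inhibitor of cyclin-dependent kinases, read 10.71, 10.59 and 10.41 in KO vesicle and 11.59, 11.56 and 11.31 in KO ectoderm, a difference of -0.92 ± 0.11 (adjusted p = 0.000698) without overlap. The D-type cyclin Ccnd2 differed by -1.31 (adjusted p = 0.0123) and the replication gene Mcm3 by 1.32 (adjusted p = 0.0459), calls lost without number 2 or 3 for Ccnd2 (adjusted p up to 0.0845) and in 5 of 9 fits for Mcm3 (up to 0.241). Of 12 alternatives Ccnd2 passed in 10 (up to 0.203) and Mcm3 in 6 (up to 0.125). The related cyclin Ccnd1 stood at 0.34 and did not pass. Of 7 neurogenic genes 0 passed (median 0.11), too few genes for the count to be read against 5.84% of all genes. Syt1, a synaptic vesicle protein, stood at 1.14 and was detected on 3 of 3 KO vesicle and 0 of 3 KO ectoderm arrays.

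Forebrain genes outside the eye were split. Of 9 measured, 2 were higher in KO vesicle (Zic1 and Wnt7b), 2 were higher in KO ectoderm and 5 did not pass (median 0.08). In all 44.4% passed, against 5.84% of all genes. The 2 on the ectoderm side were Rspo1 and Emx2, a homeobox gene of the dorsal forebrain. Emx2 read 7.46, 5.54 and 7.61 in KO ectoderm and was not detected on any KO vesicle array, nor on any WT array. It was at least 4.4-fold higher in KO ectoderm (adjusted p = 0.00455, kept in 11 of 12 alternatives with p up to 0.0615). Emx2 passed the detection filter only through the KO ectoderm arrays, where it was high, so these p-values are a description only.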
